A study of Mus musculus with 4 samples.

Results

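The genes of RNA polymerase II (Pol II), its general transcription factors and the Mediator were taken as the rows whose symbol begins with Polr2 or Gtf2, or with Taf or Med followed by a digit. The rule found 84 of the 20171 genes in the table: 13 Polr2, 16 Gtf2, 24 Taf and 31 Med genes. It also takes in 4 Tafs of the Pol I factor SL1 (Taf1a to Taf1d), the 2 Taf-like subunits of the SAGA coactivator (Taf5l and Taf6l), the RNA-binding protein Taf15 and the antisense RNA Med9os. The rule further takes the 3 genes of the TFII-I family (Gtf2i, Gtf2ird1 and Gtf2ird2) and Polr2m, a regulator bound to Pol II. Of the 84, 80 were high enough to be tested, with Taf7l, Taf7l2, Gtf2ird2 and Med9os below the filter. The isoform table held 715 isoforms of 74 of these genes, out of 68012 isoforms in all.

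Long-read sequencing (PacBio) covered whole cDNA molecules of single mouse oocytes and blastomeres, each molecule carrying a unique molecular identifier (UMI). Embryos came from C57BL/6J females aged 6 to 8 weeks mated to DBA/2NCrl males according to the design text, while the sample labels give the strain as DBA/2J x C57BL/6J. The labels name no gene deletion and no agent in any group other than the ovulation hormone hCG, from which time is counted. According to the study, the females also received pregnant mare's serum gonadotropin (PMSG) before hCG. The groups were 10 oocytes at metaphase II of unmated females (20 h), 9 zygotes (22 to 24 h), 5 early 2-cell embryos (E2C, 30 to 32 h), 6 late 2-cell embryos (L2C, 46 to 48 h), 5 4-cell embryos (54 to 56 h), 4 8-cell embryos (68 to 70 h) and 4 16-cell embryos (78 to 80 h). These 43 oocytes and embryos, with 121 cells, are the replicates. Cell names of 22 32-cell blastomeres (78 to 80 h), 13 early blastocyst cells (88 to 90 h) and 5 mouse embryonic stem cells (mESC, the male line E14 Tg2A) name no embryo, so only medians over cells, with no test, are given for them. A further set held 4 intact oocytes and 12 parts of oocytes, 6 of a larger and 6 of a smaller size. Nothing in the labels says that the embryos of 1 stage came from different females, so the p-values measure the spread between embryos as collected.

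Pol II transcribes all protein-coding genes. To start, it is placed at a promoter by TFIID (the TATA-binding protein with its TAFs), TFIIA, TFIIB, TFIIE, TFIIF and TFIIH, and it receives signals from bound activators through the Mediator, which is built of a head, a middle, a tail and a kinase module. A mouse oocyte at metaphase II does not transcribe: it lives on RNA stored during growth, and the embryo's own genome is switched on mainly in the late 2-cell embryo while much of the stored RNA is destroyed.

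Levels are copies per 100,000 UMIs of a cell, taken as the mean of an embryo's cells. They are not divided by length, because 1 UMI stands for 1 cDNA molecule. On such a scale a lower level can mean fewer molecules of the gene or more of all others, and these cannot be told apart. The depth was 4985 to 389775 gene UMIs per cell, greatest in oocytes and zygotes. The shallowest L2C embryo, replicate 1, was a single cell of 17971 UMIs. The stage labels were set against marker genes. The summed oocyte markers (Gdf9, Bmp15, Zp3, Mos and Zar1) stood at 958 copies in oocytes, 245 in E2C and 47.2 in L2C (means of embryos). The summed pluripotency markers (Pou5f1, Nanog, Sox2, Esrrb and Dppa5a) rose from 32.8 in E2C to 225 ± 118 (SD, n = 6) in L2C. Nanog had no UMI in E2C or L2C, and Sox2 had some in E2C and none in L2C. The late 2-cell markers of the Zscan4 and Tcstv families went against their name: the 5 E2C embryos had a mean of 49.2 ± 18.6 (SD) and the 6 L2C embryos one of 11.1 ± 14.6 (SD). Markers of cumulus cells summed to 7.60 copies in oocytes and to 0 in L2C. The 32-cell cells were all of sequencing run 2, the blastocyst cells all of run 1 and the mESCs all of run 3, so for these run and stage cannot be told apart.

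The sequences that carry the clearest change in RNA form belong to Med27, a Mediator subunit. In GRCm38 the gene lies on chromosome 2 from 29346819 to 29524793 on the plus strand. Oocyte Med27 RNAs began over 30 kb inside the gene, and RNAs beginning at the annotated start appeared in L2C. The genomic bases before the annotated start and before a lesser downstream start (435 of the 3681 Med27 isoform UMIs in oocytes) are shown, 5′ to 3′ on the plus strand, as given by RefSeq for GRCm38.p6. The start of the main oocyte form, PB.40936.41 at 29377606, lay in no RefSeq window and is not shown here.
Med27, before isoform PB.40936.12 at the annotated start, chr2:29346600-29346749: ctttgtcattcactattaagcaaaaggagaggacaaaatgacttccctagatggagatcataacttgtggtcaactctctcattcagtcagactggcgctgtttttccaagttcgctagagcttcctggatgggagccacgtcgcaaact
Med27, before isoform PB.40936.156 at a downstream start, chr2:29378264-29378395: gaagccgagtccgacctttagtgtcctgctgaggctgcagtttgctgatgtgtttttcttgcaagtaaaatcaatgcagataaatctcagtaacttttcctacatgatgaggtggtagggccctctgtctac

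The stretches before the main isoforms of 3 members with large changes are shown for the same reason, a stored RNA beside RNAs that appeared in L2C. Gtf2b encodes TFIIB, which joins the polymerase to the promoter. Gtf2h5 encodes the smallest subunit of TFIIH, and Med29 a Mediator subunit found in animals. Capitals mark a CCAAT box, read on the other strand as ATTGG, or a GC box (GGGCGG).
Gtf2b, before PB.49747.19, chr3:142765072-142765221, plus strand: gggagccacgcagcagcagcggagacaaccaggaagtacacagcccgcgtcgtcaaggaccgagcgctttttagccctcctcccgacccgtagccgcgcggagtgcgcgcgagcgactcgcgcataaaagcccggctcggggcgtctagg
Med29, before PB.66247.15, chr7:28392776-28392925, minus strand: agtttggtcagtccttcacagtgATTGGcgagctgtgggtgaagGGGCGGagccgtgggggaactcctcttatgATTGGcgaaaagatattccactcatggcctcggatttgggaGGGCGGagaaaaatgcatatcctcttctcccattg
Gtf2h5, before PB.31546.2, chr17:6079606-6079755, plus strand: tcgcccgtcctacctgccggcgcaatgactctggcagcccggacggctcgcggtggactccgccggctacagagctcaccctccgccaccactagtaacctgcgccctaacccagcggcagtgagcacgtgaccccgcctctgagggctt
Of these 5 stretches, only that of Med29 held any of the motifs searched. The isoform shown had 605 UMIs in oocytes and 12 in L2C for Gtf2b, 8 and 486 for Med29, and 21 and 126 for Gtf2h5.

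Up to the 4-cell stage the set held much of its share of RNA while its make-up changed. The summed level of the 84 genes was 1789 ± 83.7 copies (SD, n = 10) in oocytes, 1703 ± 53.4 (n = 9) in zygotes, 1423 ± 164 (n = 5) in E2C, 1579 ± 173 (n = 6) in L2C, 1581 ± 98.5 (n = 5) in 4-cell, 1136 ± 95.7 (n = 4) in 8-cell and 1025 ± 148 (n = 4) in 16-cell embryos. Medians over cells were 969 in 32-cell blastomeres, 931 in blastocyst cells and 867 in mESCs. Counted as UMIs per cell the sums were 3628 in oocytes, 826 in L2C and 265 in 16-cell embryos. Oocytes held their copies in few genes. The 10 highest members made up 68.4% of the sum in oocytes (Polr2c, Med27, Med10, Med30, Med31, Gtf2a2, Polr2j, Gtf2b, Med28 and Taf7), 63.4% in E2C and 52.9% in L2C. The number of members at 10 copies or more was 29 in oocytes, 27 in E2C and 41 in L2C. With every cell thinned to 5000 UMIs (1 cell was too shallow), 26.1 ± 2.77 members (SD) were detected per oocyte and 33.8 ± 1.60 per L2C embryo, against 69.5 and 69.3 without thinning. The mean was highest in L2C for 24 members, in 4-cell embryos for 19, in oocytes for 18 and in E2C for 10.

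Between oocyte and L2C, the comparison that sets the oocyte's store against the state after genome activation, 34 members were called higher and 20 lower among the 80 tested. The limits for a call were an unadjusted limma p under 0.01 and a log2 fold change beyond 1 either way. Over all 11682 genes tested, 51.1% were called, 32.0% higher and 19.1% lower, so a call was common in this comparison. The median log2 fold change was 0.73 over the members and 0.27 over all genes. All L2C embryos lay above all oocytes for 22 members and below them for 13, against 15.1% and 11% of all genes.

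**Figure D1:**
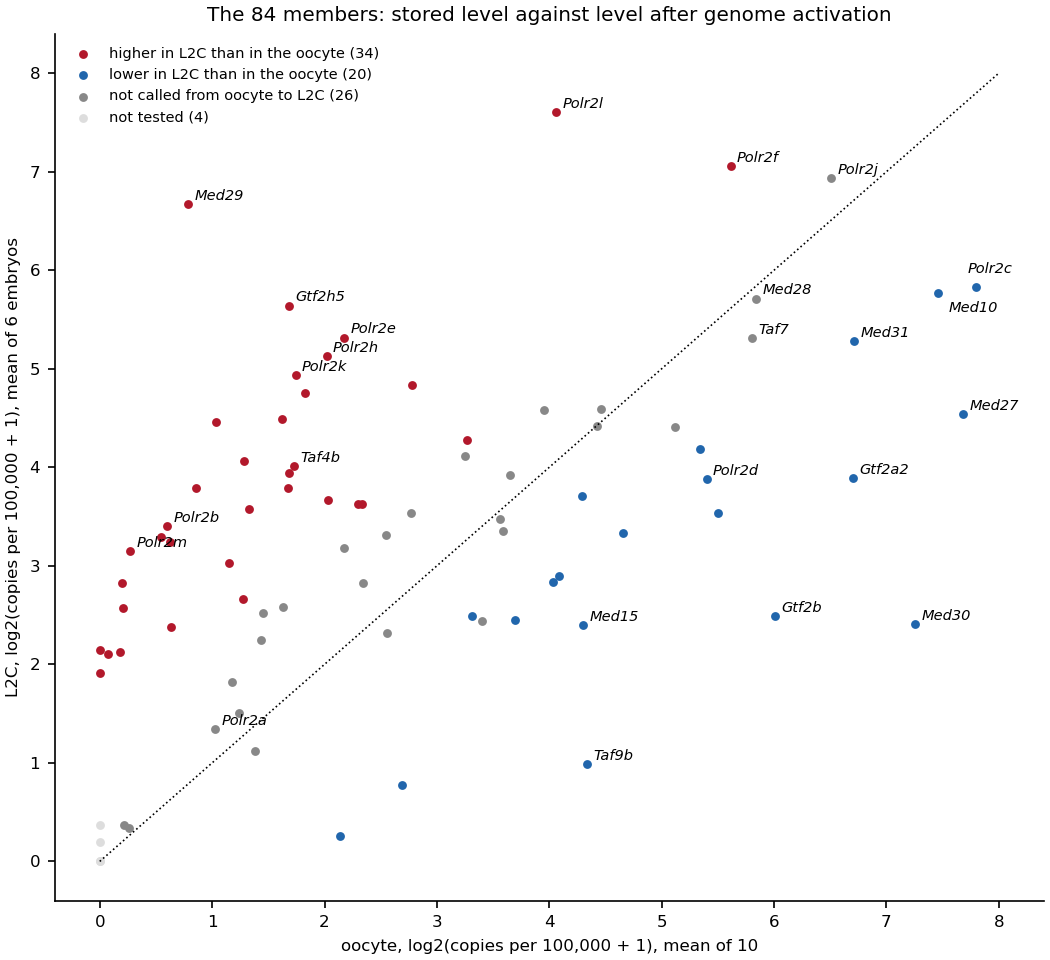
Mean level of each of the 84 members in oocytes (x axis) and L2C embryos (y axis), as log2(copies per 100,000 UMIs + 1), with 1 point per gene; red points were called higher in L2C (34), blue points lower (20), grey points not called (26) and light points not tested (4). Med29 and Polr2l lie far above the diagonal and Med30, Gtf2b and Med27 far below it.

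The polymerase itself has 12 core subunits, of which 5 (Polr2e, Polr2f, Polr2h, Polr2k and Polr2l) also sit in RNA polymerases I and III. From E2C to L2C, 32 members in all were called higher and 14 lower, beside 48.4% of all genes called (25.6% higher, 22.8% lower). All 5 of the shared subunits rose. None of the 12 core subunits, shared or not, was called at any other adjacent step. Polr2l stood at 16.2, 18.1, 35.6, 27.4 and 51.4 copies in the 5 E2C embryos and at 107 (lowest), 162 (median) and 301 (highest) in L2C. No L2C embryo overlapped with E2C, the log2 fold change was 2.79 ± 0.33 (SE; limma adjusted p = 1.66e-10), and the change within runs 1, 2 and 3 was 3.19, 3.51 and 1.80. Polr2f stood between 29.2 and 44.3 copies in E2C and between 77.9 and 174 in L2C, again with no overlap (1.92 ± 0.25, adjusted p = 1.7e-09). Polr2h went from 3.15, 1.42, 3.39, 2.07 and 6.52 copies in E2C to a median of 34.3 and at most 39.2 in L2C (3.16 ± 0.37, adjusted p = 7.4e-11). Polr2k rose by 3.16 and Polr2e by 2.67 on the log2 scale. Polr2l stayed the most abundant member through the 16-cell stage, with 261 ± 37.8 copies (SD, n = 5) in 4-cell and 136 in 16-cell embryos and a median of 77.1 over mESCs.

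The 7 subunits that only Pol II has did not move as one. Between E2C and L2C, 2 rose and 2 fell, beside 25.6% and 22.8% of all genes. Polr2c, which pairs with another subunit to start assembly of the enzyme, was the most abundant member in oocytes at 170 (lowest), 215 (median) and 287 (highest) copies. It was at 208, 182, 157, 208 and 229 copies in E2C and between 33.4 and 83.3 in L2C, a 3.53-fold lower mean with no overlap (−1.80 ± 0.27, adjusted p = 5.25e-08). Polr2c shares its place with Dok4 on the opposite strand. Polr2g, part of the detachable stalk of the enzyme, fell by 2.08 on the log2 scale from 43.5 to 9.07 copies. Polr2d, its stalk partner, fell earlier, from 41.3 ± 14.1 copies (SD, n = 10) in oocytes to 12.5 ± 2.74 (n = 5) in E2C (−1.64 ± 0.25, adjusted p = 3.27e-07), and stood at 13.7 in L2C. Polr2b, the second largest subunit and part of the catalytic centre, was at 1.64, 1.24, 1.49, 1.58 and 0.543 copies in E2C and at 0, 15.0, 13.0, 10.2, 10.6 and 8.65 in L2C (2.25 ± 0.44, adjusted p = 1.5e-05). The 0 was in L2C replicate 1, so the groups overlapped by that embryo. Polr2i rose from 6.94 to 27.6 copies, and Polr2j, the partner of Polr2c in assembly, was at 73.8 ± 28.7 copies (SD, n = 5) in E2C and 122 ± 19.5 (n = 6) in L2C and was not called. Polr2a, the largest subunit, whose tail repeats are phosphorylated during transcription, was at 1.04 copies in oocytes and 1.54 in L2C and was never called (E2C to L2C 0.31 ± 0.43, adjusted p = 0.552). Its annotated RNA is 6740 bases long, and across 82 members with a known length the level fell with length (Spearman rho −0.37 in oocytes, −0.46 in L2C, −0.59 in 16-cell embryos, a description across genes that share libraries). Of 29 members of 3000 bases or more, 12 reached 10 copies in oocytes or L2C, against 38 of 53 shorter ones.

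**Figure D2:**
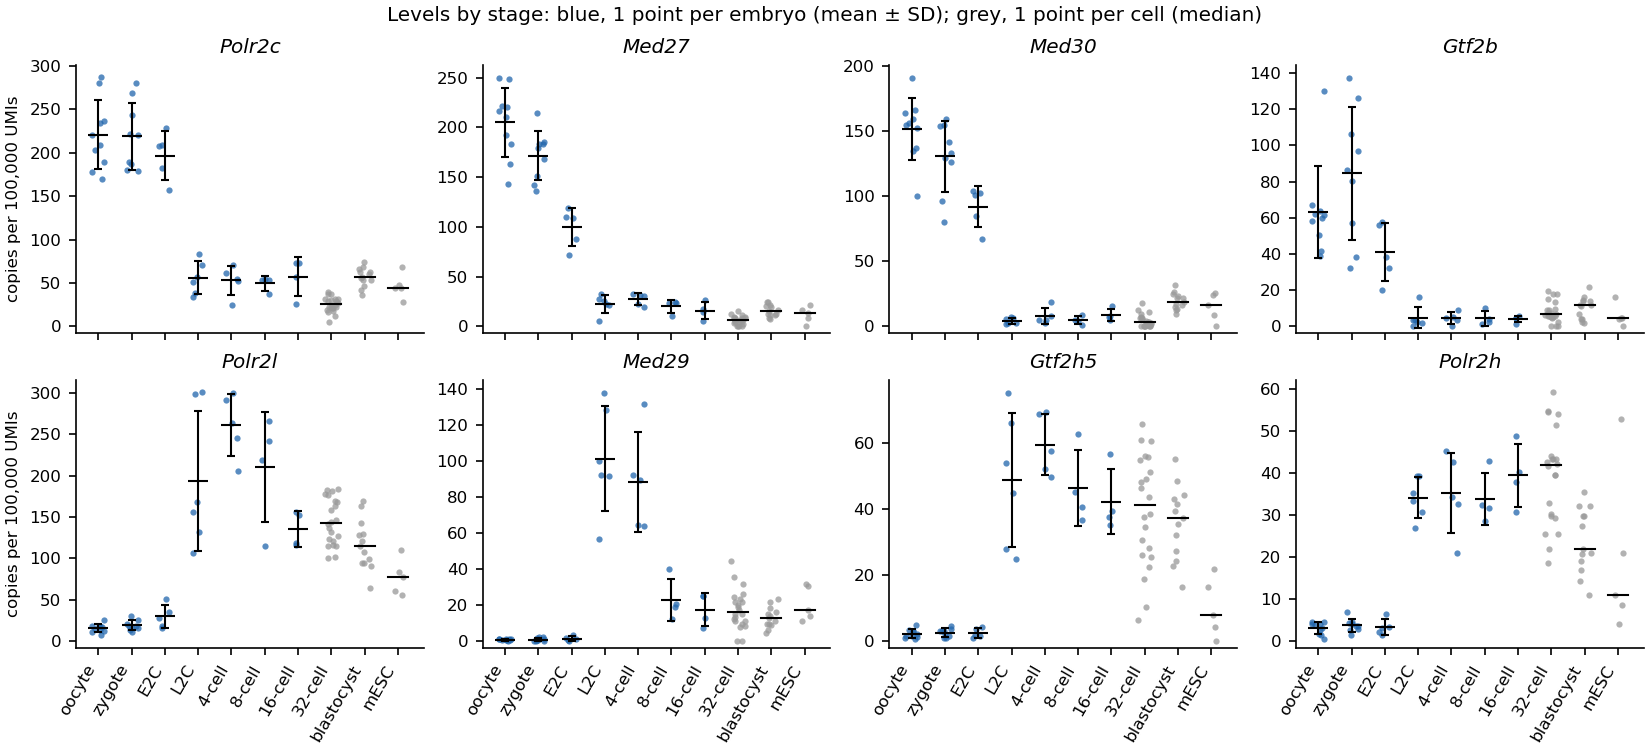
Level of 8 members by stage in copies per 100,000 UMIs (y axis, linear): blue points are oocytes, zygotes or embryos with their mean and SD, and grey points are single cells of the 32-cell, blastocyst and mESC groups with their median. Polr2c, Med27, Med30 and Gtf2b start high (63.3 to 221 copies in oocytes) and are low from L2C on, while Polr2l, Med29, Gtf2h5 and Polr2h start at 0.727 to 15.7 and rise at L2C.

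Of the genes for the factors that place the polymerase, Gtf2b and Gtf2a2 fell from E2C to L2C, while both TFIIF genes and 4 of 5 TFIIH genes rose. Over all genes, 25.6% were called higher and 22.8% lower at this step. Gtf2b, the only gene for TFIIB, was at 38.6 (lowest), 60.7 (median) and 130 (highest) copies in oocytes, at 57.7, 20.3, 32.2, 56.2 and 38.5 in E2C and at 0, 3.70, 1.78, 16.1, 3.44 and 2.63 in L2C. The fall from E2C was 8.89-fold in the means with no overlap (−3.20 ± 0.43, adjusted p = 4.39e-09), and the level did not come back by the 16-cell stage (4.03 copies). Gtf2a2, the small TFIIA subunit, was between 85.9 and 136 copies in oocytes and at 67.9, 41.6, 45.8, 57.3 and 56.1 in E2C. It lay between 5.56 and 24.5 in L2C (−1.85 ± 0.30, adjusted p = 4.54e-07) and at 6.43 in 8-cell embryos. Gtf2a1, the large TFIIA subunit, was called lower from E2C to L2C (30.0 to 20.4 copies), with an SD of 18.6 over the 6 L2C embryos, of which replicate 1 was at 55.6 and the others at 2.49 to 22.1. Its mean in oocytes was 20.4 as well, and the call from E2C was lost without array weights.

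Both TFIIF genes, 4 of the 5 core TFIIH genes (Gtf2h1, Gtf2h2, Gtf2h4 and Gtf2h5) and the TFIIE gene Gtf2e1 rose from E2C to L2C. Gtf2h5 was at 1.75, 3.71, 4.41, 1.03 and 1.61 copies in E2C and between 24.9 and 75.4 in L2C, a 19.6-fold higher mean (3.95 ± 0.39, adjusted p = 4.49e-13). Its level within runs 1, 2 and 3 rose by 3.39, 3.14 and 4.59 on the log2 scale. Gtf2h1 went from 2.34 to 20.9 copies. Gtf2h3 was 8.53 in E2C and 9.19 in L2C and was not called. Gtf2f2, the small TFIIF subunit, was at 4.14, 2.47, 2.51, 5.58 and 3.24 copies in E2C and at 5.56, 24.9, 14.4, 35.1, 37.9 and 38.0 in L2C (2.57 ± 0.37), with only replicate 1 of L2C near the E2C values. Gtf2f1, the large TFIIF subunit, went from 1.80 to 12.9 copies and reached 28.1 in 4-cell embryos. Gtf2e1, the large TFIIE subunit, went from 1.19 to 4.75 copies. Gtf2e2, the small one, was at 3.10 copies in oocytes, 6.43 in E2C and 11.7 in L2C and was called against oocytes, not against E2C. The TFIIH kinase Cdk7, which the symbol rule does not take, rose as well, from 2.28 to 16.5 copies (2.48 ± 0.40, adjusted p = 2.64e-07).

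TFIID reads the core promoter through its TAFs, and its genes were mixed. Of 15 tested, 2 were higher and 5 lower in L2C than in oocytes, beside 32.0% and 19.1% of all genes, and 2 and 2 against E2C, beside 25.6% and 22.8%. Some of its members also moved between oocyte and E2C. Taf8, which carries a histone-fold partner into the complex, was between 10.8 and 20.4 copies in oocytes and at 4.58, 0, 1.56, 2.14 and 2.70 in E2C (−2.52 ± 0.29, adjusted p = 2.96e-10). Taf7, which binds Taf1 and leaves at initiation, was between 39.6 and 73.6 copies in oocytes and at 27.1, 15.2, 18.6, 17.9 and 24.8 in E2C (−1.41 ± 0.23, adjusted p = 9.61e-07), then between 22.3 and 54.3 in L2C. Taf3, which binds a methylated histone at active promoters, rose from 3.52 copies in oocytes to 11.7 in E2C (1.51 ± 0.31, adjusted p = 0.0001). Taf1, the scaffold of TFIID, was at 1.25 copies in oocytes and 2.54 in L2C and was not called. The Pol I TAFs rose as a group from E2C to L2C, 4 of 4 tested, for example Taf1d from 3.72 to 21.5 copies (2.49 ± 0.45, adjusted p = 3.89e-06) and Taf1a from 3.53 to 10.6, the latter lost under edgeR.

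Several TAFs exist as pairs of near relatives, and the more abundant form was another in L2C than in E2C in the pairs of Taf4 and Taf4b, Taf9 and Taf9b, and Taf5 and Taf5l. Taf4b, a germ-cell form of Taf4, was at 2.61, 6.36, 1.49, 1.03 and 2.72 copies in E2C and between 10.1 and 19.5 in L2C, with no overlap (2.25 ± 0.36, adjusted p = 2.77e-07). Its share of the UMIs of Taf4 and Taf4b was 11.1% in oocytes (47 of 422), 15.4% in E2C and 62.8% in L2C (91 of 145), and L2C embryos ranged from 37.5 to 75.9%. Taf9b, a relative of Taf9 on the X chromosome, went the other way. It was at 26.5, 20.9, 24.0, 22.3 and 15.2 copies in E2C and at 2.00 or less in each L2C embryo (−3.60 ± 0.34, adjusted p = 6.32e-14), while Taf9 was at 15.4 and 23.2. Taf9b made up 47.6% of the pair in oocytes, 59.9% in E2C and 4.79% in L2C (7 of 146 UMIs, 0 to 6.67% by embryo). Taf9 overlaps Ak6 on the same strand, so its reads could be split between the genes.

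The same view of other pairs gave small counts. Taf5l, the SAGA relative of Taf5, held 1.64% of the pair in oocytes, 4.13% in E2C and 55.2% in L2C, with embryos from 33.5 to 100%. Gtf2a1l, a germ-cell form of Gtf2a1, held 14.4%, 3.80% and 1.16%. Med12l held 91.7% of the Med12 pair in oocytes and 20.0% in L2C, on only 15 UMIs in L2C. Taf7l, a germ-cell form of Taf7, had 2 UMIs in all embryos together. Tbpl2, the oocyte form of the TATA-binding protein, is outside the symbol rule. It was at 4.04 ± 1.13 copies (SD, n = 10) in oocytes, 2.15 in E2C and 0 in L2C, where 0 of 599502 UMIs in 11 cells allow a level of up to 0.500 copies. Tbp was at 1.14, 3.39 and 3.71 copies in the same stages and was not called from E2C to L2C. The L2C mean rested on replicate 1 at 11.1 copies, the other 5 embryos being at 0.784 to 4.15.

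**Figure D3:**
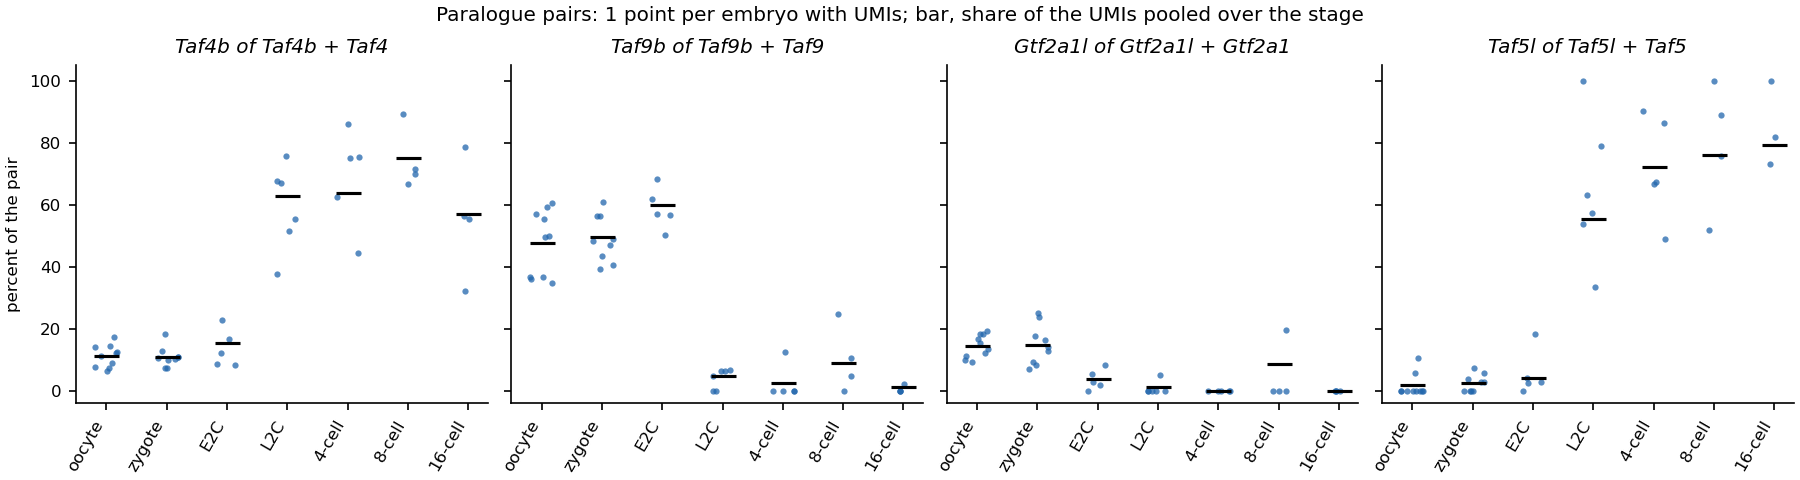
Share of the UMIs of a pair of related genes taken by its first member, in percent (y axis) by stage, for Taf4b with Taf4, Taf9b with Taf9, Gtf2a1l with Gtf2a1 and Taf5l with Taf5; each point is 1 oocyte, zygote or embryo and the bar is the share over pooled UMIs. Taf4b goes from 11.1% in oocytes to 62.8% in L2C and Taf9b from 47.6% to 4.79%.

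The Mediator held the member with the largest fall (Med30) and the one with the largest rise (Med29) of the 80 from E2C to L2C. Of its 30 tested genes, those called at this step were 2 higher and 1 lower of 7 in the head. In the middle they were 3 and 1 of 9. In a group of Med14, Med27, Med28, Med29 and Med30 they were 1 and 3 of 5 (Med29 higher, Med27, Med28 and Med30 lower). In the tail they were 1 and 1 of 5, and in the kinase module 1 higher of 4. These counts stand beside 25.6% of all genes called higher and 22.8% called lower at this step. Med30 was between 100 and 191 copies in oocytes, at 101, 84.6, 67.4, 104 and 103 in E2C and between 1.72 and 7.18 in L2C. The mean was 21.3-fold lower than in E2C with no overlap (−4.33 ± 0.35, adjusted p = 6e-16), and runs 1, 2 and 3 gave −3.96, −4.43 and −4.25. Med27 was at 119, 72.1, 87.3, 109 and 109 copies in E2C and between 5.56 and 32.9 in L2C (−1.99 ± 0.29, adjusted p = 4.32e-08). Med10, of the middle, went from 175 ± 21.1 copies (SD, n = 10) in oocytes to 118 ± 21.6 (n = 5) in E2C and 53.4 ± 10.1 (n = 6) in L2C. Med15, a tail subunit that activators bind, was at 20.9, 27.9, 20.5, 28.2 and 22.1 copies in E2C and at 11.1 or less in L2C (−2.96 ± 0.36, adjusted p = 3.76e-10).

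Med29 was the member with the greatest rise. It was at 0 (lowest), 0.768 (median) and 1.20 (highest) copies in oocytes, at 0.652, 0, 0.948, 1.93 and 3.24 in E2C and between 56.5 and 138 in L2C. The mean was 74.7-fold higher than in E2C, every L2C embryo lay above every E2C embryo (5.55 ± 0.41, adjusted p = 1.71e-17), and runs 1, 2 and 3 gave 5.94, 6.06 and 4.84. The level was 64.0, 64.4, 132, 92.3 and 89.5 copies in 4-cell embryos and 18.9, 20.4, 12.2 and 39.8 in 8-cell embryos. Med13, a large kinase-module subunit, was at 9.85 copies in E2C, 11.4 in L2C, 6.18 in 4-cell and 1.57 in 8-cell embryos. Med12, another subunit of the kinase module, rose from 0.355 copies in E2C to 3.37 in L2C, a call lost under edgeR and DESeq2 and without L2C replicate 1. Med14, the backbone of the complex, was at 2.19 copies in oocytes, 5.21 in E2C and 12.8 in L2C, and was called from oocyte to E2C but not from E2C to L2C.

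The remains of the oocyte's store were measured beside these falls. As means over cells, the summed oocyte markers were at 25.6% of their oocyte level in E2C and 4.79% in L2C. They fell from oocytes to E2C and again from E2C to L2C. Med30 was at 152 copies in oocytes, 91.9 in E2C and 4.32 in L2C, Gtf2b at 63.3, 41 and 4.61, and Gtf2a2 at 103, 53.7 and 13.9. The part of undegraded oocyte RNA in the low later levels was not tested.

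**Figure D4:**
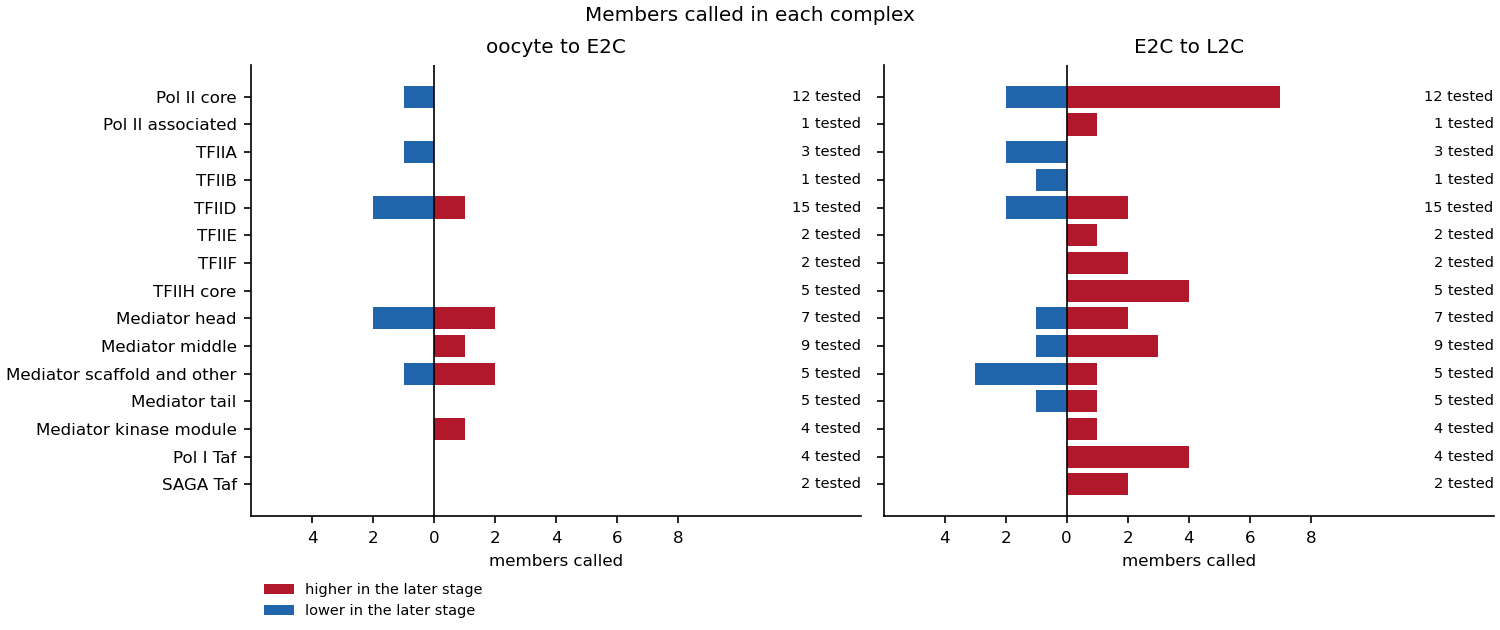
Number of members called higher (bars to the right) and lower (bars to the left) in each complex at oocyte to E2C and at E2C to L2C, over the 77 tested members of 15 groups. At E2C to L2C the Pol II core has 7 higher and 2 lower, TFIIH 4 higher, the Pol I TAFs 4 higher and TFIIA 2 lower. TFIID has 2 higher and 2 lower of 15. Over all genes 25.6% were called higher and 22.8% lower at this step.

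Up to the early 2-cell stage few members moved. From oocyte to zygote, 2 were called, both higher, beside 3.24% of all genes (2.92% higher, 0.325% lower): Med1, the subunit that nuclear receptors bind (1.09 ± 0.22, adjusted p = 0.000358), and Taf3 (1.13 ± 0.23, adjusted p = 0.000371). From zygote to E2C, 1 was higher and 5 lower, beside 7.27% of all genes called (4.52% higher, 2.75% lower). The 5 were Taf8, Med20, Med11, Gtf2b and Gtf2a1l, and Med1 was the 1 higher. The call of Gtf2b was lost with the run as a block, a pseudocount of 0.1, no filter, no array weights or summed UMIs, and without E2C replicate 2 or 3. That of Med1 was lost with the run block, a pseudocount of 0.1 and both count models, and without E2C replicate 3 or 4. On recovered UMIs, edgeR and DESeq2 each called 12 members at this step, all lower. Over both steps together, oocyte to E2C, 7 rose and 7 fell, beside 16.8% of all genes (12.7% higher, 4.11% lower). Med1 rose most, from 1.51 copies in oocytes through 3.77 in zygotes to 8.44 in E2C (2.14 ± 0.30, adjusted p = 5.09e-08). Med28, of the group with Med14, rose from 56.3 ± 14.4 copies (SD, n = 10) to 124 ± 26.6 (n = 5; 1.16 ± 0.21, adjusted p = 1.39e-05) and Med6, of the head, from 8.49 to 19.3. Med20 and Med11, both of the head, fell from 15.9 to 2.73 and from 10.8 to 2.18 copies and stood at 6.45 and 10.1 in L2C. Of the 7 rises, those of Med6, Med13, Med14 and Med28 were lost under both count models, which called 3 higher and 13 lower (edgeR) and 3 higher and 15 lower (DESeq2).

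After genome activation few members moved at the next step, and a group of them was lower at the one after. From L2C to 4-cell, 3 members were called (Polr2m higher, Taf3 and Med13 lower) beside 6.69% of all genes (2.41% higher, 4.28% lower), and their adjusted p-values were 0.0651 to 0.115. Between 1 and 5 were called when an embryo was left out, the fewest without 4-cell replicate 5. From 4-cell to 8-cell, 15 were called, all lower, beside 15.0% of all genes (4.47% higher, 10.5% lower), and 13 of the 15 had an adjusted p under 0.05. The median log2 fold change was −0.36 over the members and −0.16 over all genes. Med29 fell most (−1.89 ± 0.44, adjusted p = 0.00129). Med13 was next (−1.51 ± 0.42, adjusted p = 0.00721). Gtf2f1 went from 28.1 to 11.8 copies (−1.40 ± 0.50, adjusted p = 0.0442), Taf4 from 4.39 to 1.22 copies (−1.31 ± 0.37, adjusted p = 0.00843), and Taf7 from 32.7 copies to 15.1, 8.96, 9.02 and 16.3 in the 4 8-cell embryos (−1.21 ± 0.34, adjusted p = 0.00895). Both TFIIF genes, Taf4 and Taf4b were among the 15. This step depended on the method: edgeR called 3 higher and 3 lower and DESeq2 3 higher and 2 lower, with Taf7 and Gtf2f1 lost under both, and 7 were called without 4-cell replicate 5. From 8-cell to 16-cell, Gtf2a2 (6.43 to 15.5 copies; 1.17 ± 0.30, adjusted p = 0.0301) and Med30 (4.72 to 8.97; 1.19 ± 0.36, adjusted p = 0.0743) were higher, beside 3.36% of all genes called (1.90% higher, 1.46% lower). Both were lost under edgeR and without 16-cell replicate 1.

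In the later cells, which have no test, Med30 had a median of 2.93 copies in 32-cell blastomeres, 18.6 in blastocyst cells and 16.4 in mESCs, against a mean of 152 in oocytes. Polr2c had medians of 25.6, 56.9 and 44, and Polr2h of 41.9, 21.9 and 10.9.

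Genes that work with these factors but fall outside the symbol rule were taken from a list of 40: the TATA-binding protein family, the TFIIH kinase and helicases, the Mediator kinase, elongation factors, phosphatases of the polymerase tail and assembly factors. From E2C to L2C, 18 of the 40 were higher and 4 lower, beside 25.6% and 22.8% of all genes. Among the 17 elongation genes, 8 were higher and 1 lower. Cdk9, the kinase of the elongation factor P-TEFb, went from 2.32 to 13.9 copies (2.07 ± 0.41, adjusted p = 2.02e-05). From oocyte to E2C 9 were higher and 1 lower, beside 12.7% and 4.11%, and from 4-cell to 8-cell 9 were lower, beside 10.5%.

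Isoforms of the members were described next. SQANTI3 sorts each into a full splice match to an annotated transcript (FSM, 206 of the 715), an incomplete match (ISM, 337), a new combination of known splice sites (NIC, 89) or one with a new splice site (NNC, 83). Med27 had the most, 41, and the median member had 9. By UMIs, FSM isoforms made up 79.1 ± 1.96% (SD, n = 10) of member UMIs in oocytes, 78.5% in E2C and 87.5 ± 0.797% (n = 6) in L2C, against 73.8%, 70.9% and 76.8% over all genes. NIC isoforms made up 11.9% in oocytes, 7.99% in E2C and 1.91% in L2C, against 4.89%, 4.46% and 3.46% over all genes. Without Med27, left out after the data were seen, the NIC share of the members was 1.33%, 1.51% and 1.72%, so its fall rested on that gene. The FSM share without Med27 was 89.6% in oocytes, 84.8% in E2C and 88.0% in L2C, and so did not rise from oocytes to L2C. UMIs of RNAs that covered both the start and the stop codon were 74.2 ± 2.49% (SD, n = 10) in oocytes and 86.3 ± 0.830% (n = 6) in L2C, with no overlap. Without Med27 they were 85.8 ± 1.23% and 86.8 ± 0.854%, and the groups overlapped. The table does not hold every molecule. Gtf2a1 had 20.4 copies in oocytes in the gene table and no isoform UMI there, and Med30 had 152 against 34.9 copies. As levels, 49 of the 349 tested member isoforms were higher and 43 lower in L2C than in E2C, beside 26.0% of all 29409 isoforms tested (12.9% higher, 13.1% lower). Against zygotes, 4 were higher and 13 lower in E2C, beside 5.18% (2.23% higher, 2.94% lower), and against oocytes, 65 were higher and 55 lower in L2C, beside 29.8% (15.6% higher, 14.2% lower).

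Among the members with enough UMIs, Med27 changed most in the share of RNAs that reach the start codon. Of 3681 Med27 isoform UMIs in oocytes 6 covered the annotated start codon, of 719 in E2C 3, of 113 in L2C 62, and of 160 in 8-cell embryos 107. In 16-cell embryos the count was 46 of 128 and in blastocyst cells 18 of 85, both under the L2C share. In 32-cell blastomeres 23 Med27 UMIs covered the start codon, 8 had the downstream start and 7 had neither. The 62 came from 10 of the 11 L2C cells. By embryo the L2C share was 64.3, 63.6, 30.0, 51.9 and 63.0%, with no Med27 isoform UMI in L2C replicate 1, and the highest E2C embryo was at 1.63%. The oocyte form PB.40936.41 (NIC, 7 exons, 1233 bases) ran from 29377606 to 29524792, began 30787 bases after the annotated start and held the last 62.7% of the coding sequence. PB.40936.12 (FSM, 8 exons, 1321 bases) began at 29346750 and held all of it, with the start codon at 29346845. A shorter annotated transcript has its start codon at 29413457, in exon 3, which the downstream RNAs also contain. No protein was measured.

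The fall of Med27 as a gene was a fall of 1 form and a rise of another. Pooled over the cells of a stage, RNAs with the downstream start were at 252 copies in oocytes, 133 in E2C and 4.79 in L2C, and RNAs with the start codon at 0.446, 0.620 and 14.8. In a test of isoform shares within the gene (limma on transformed shares, 5 E2C and 5 L2C embryos with UMIs), PB.40936.41 went from 59.2 to 12.2% (isoform adjusted p = 1.93e-06) and PB.40936.12 from 0.163 to 45.5% (5.77e-06), with a gene-level adjusted p of 7.61e-06. In L2C the downstream RNAs stood at 1.90% of their oocyte level and the summed oocyte markers at 4.79% of theirs. In 16-cell embryos the figures were 3.14% and 3.07%, and in blastocyst cells 5.16% and 3.12%. There the downstream RNAs, pooled over cells, were again above those with the start codon. They were at 7.91 against 5.13 copies in 16-cell embryos and 13 against 3.83 in blastocyst cells. Replicate 1 of the 16-cell embryos held 84 Med27 UMIs, 26 with the start codon, and replicates 2, 3 and 4 held 22, 10 and 12. In replicate 4, 7 of the 12 covered the start codon. Replicate 1 was of run 1, as were all blastocyst cells. In mESCs the downstream RNAs were at 6.99 copies and the RNAs with the start codon at 4.66, on 11 UMIs. The downstream RNAs stood there at 2.78% of their oocyte level and the summed oocyte markers at 3.88% of theirs. The downstream form was also the main one in the second set of oocytes, at 86.9% of Med27 UMIs in intact oocytes and 80.8% and 84.3% in the larger and the smaller parts.

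**Figure D5:**
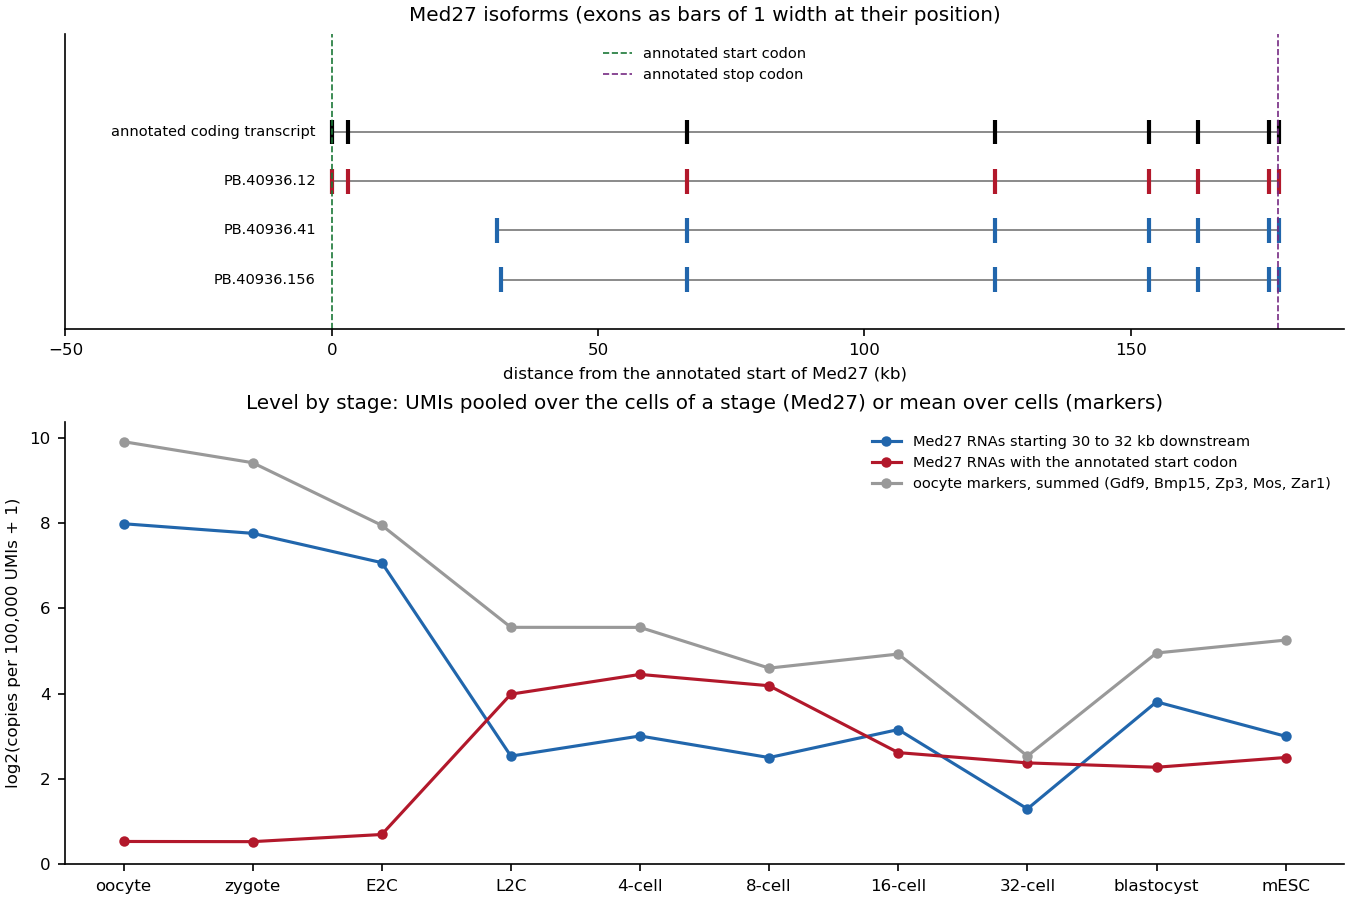
Top: exons of the annotated Med27 transcript and of isoforms PB.40936.12, PB.40936.41 and PB.40936.156 as bars of 1 width (not their lengths) against distance from the annotated start in kb. Bottom: level by stage, as log2(copies per 100,000 UMIs + 1), of Med27 RNAs with the downstream start, of those with the start codon and of the summed oocyte markers. The downstream RNAs go from 252 copies in oocytes to 4.79 in L2C and those with the start codon from 0.446 to 14.8. Copies of the Med27 RNAs are per 100,000 isoform UMIs and those of the markers per 100,000 gene UMIs.

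Changes in isoform shares were called for 10 of 58 members at E2C to L2C, beside 18.5% of all genes in that test, for 4 of 60 at zygote to E2C, beside 3.67%, for 1 of 55 at 4-cell to 8-cell (1.83%) and for 1 of 54 at 8-cell to 16-cell (1.07%). After Med27 the smallest gene-level adjusted p-values were those of Polr2d (5.71e-05), Taf1d (0.000169), Polr2h (0.0008), Gtf2f2 (0.000976) and Taf12 (0.00163). In Taf1d a 453-base form that did not reach the annotated stop codon (PB.74605.1) fell from 65.3% of UMIs in zygotes to 0% in E2C, 51 UMIs against none. In Gtf2f2 a form ending 390 bases short of the annotated end (PB.24627.49) rose from 0 to 36.8% between E2C and L2C, with 62 UMIs in L2C. In Taf12, a histone-fold TAF, one form fell from 57.7 to 12.9% and another rose to 28.4%. The forms of Polr2d lost at L2C rested on 7 and 3 UMIs, and that of Polr2h gained in 8-cell embryos on 8 UMIs. Most members kept the front end of their RNA. Between oocytes and L2C, 31 of 37 members with at least 20 UMIs in both moved by 10 percentage points or less in the share of RNAs that covered the start codon. Med27 (54.7 points) and Taf8 (20.6) moved up, and the shares of Taf1d, Gtf2b and Taf10 changed by −23.0, −21.8 and −15.5 points.

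Promoter windows, from 250 bases before to 50 bases after the annotated start, were found in RefSeq (GRCm38.p6) for 73 of the members. They were searched on both strands for letters only. TATAAA was in windows of 12 members (16.4%, against 15.7% of 27025 genes), CCAAT in 26 (35.6% against 41.1%), GGGCGG in 51 (69.9% against 38.2%) and the ETS-type CCGGAAG in 25 (34.2% against 9.93%). Windows of members higher in L2C than in oocytes and of those lower held TATAAA in 3 of 29 and 3 of 17, CCAAT in 9 and 6, GGGCGG in 21 and 11, and CCGGAAG in 8 and 4. The median GC content was 61% in the windows of the matched members and 52.7% in all windows, and its part in these counts was not tested. The counts are a description, and a match is not a bound site.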

How the data were processed

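Single-cell full-length cDNA was sequenced in 4 PacBio runs, about 60 pooled cells a run. The authors made consensus reads, assigned barcodes and UMIs, aligned with minimap2 to the mm10 genome, named genes with gffcompare and kept isoforms that passed SQANTI3 and occurred in 5 or more cells. Deposited values are a form of CPM, scaled to 100,000 UMIs per cell (CPM divided by 10). Columns of stages other than 8-, 16- and 32-cell, on the same scale as the authors deposited them, are recorded here as a score because fewer than 20 columns of each such stage are in the table. The split oocytes were deposited as whole UMI counts. All non-zero normalized values (100%) were whole multiples of 1 UMI within 0.1, which gave the UMIs back. No column was left unused.

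The replicate was the embryo in the cell name. Which run an embryo came from was read from the study's cell lists and used for within-run values and the run block. Levels were averaged over an embryo's cells. limma 3.58.1 (trend, array weights) was fitted to log2(copies + 1) of all 7 stages at once, for features at 1 copy or more in at least 4 embryos, and fold changes are on that scale, which understates those of low genes. A call needed p under 0.01 and a log2 fold change beyond 1 in either direction. P-values were adjusted by Benjamini and Hochberg's method over all features. Isoform shares were tested with limma on arcsine square roots, with Simes p-values per gene, with adjusted p limits of 0.01 for the gene and 0.05 for the isoform. The recovered UMIs were also fitted in R 4.3.3 with DESeq2 1.42.0 and edgeR 4.0.16. Other work used Python 3.11.15, numpy 2.4.6, pandas 2.3.3, scipy 1.17.1 and matplotlib 3.10.9. The scripts were tested on simulated data.

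The members, gene lists and tests were chosen with earlier results of these data known. Named members were the highest of each complex in oocytes and L2C, up to 5 with the greatest rise and fall at oocyte to E2C, E2C to L2C and 4-cell to 8-cell and up to 2 at other steps at 5 copies or more, and a list by known role. Other members named with values, such as Polr2f, Polr2g and Polr2j, were chosen after their values were seen. Positions are GRCm38, with GENCODE vM21 models. UMIs guard against PCR copies, and limits at a count of 0 cover counting error only.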

Additional observations from a re-analysis of the deposited data

Results flagged for a closer look

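Of 211 member and stage groups of 4 to 10 embryos with a mean of 5 copies or more, 21 had 1 embryo far from the others, where chance at 1 in 20 would give 10.55. Values are copies per 100,000 UMIs, with the range of the other embryos of the stage in brackets. Among oocytes, Gtf2a1 was at 30.6 in replicate 5 (16.8 to 22.8), Gtf2a2 at 136 in replicate 9 (85.9 to 112), Taf1a at 10.2 in replicate 7 (4.13 to 7.31) and, all in replicate 6, Gtf2b at 130 (38.6 to 67.1), Med28 at 90.8 (42.6 to 62.2) and Med11 at 2.92 (9.74 to 15.2). Among zygotes, Med22 was at 71.8 in replicate 9 (29.0 to 49.9).

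Among E2C embryos, Med28 was at 78.2 in replicate 2 (129 to 146) and Taf12 at 10.5 in replicate 3 (15.1 to 16.7). L2C replicate 1, the shallowest of its stage, stood apart in Gtf2a1 at 55.6 (2.49 to 22.1), Med11 at 27.8 (4.78 to 11.4) and Taf4 at 27.8 (3.22 to 12.4). In 4-cell embryos, replicate 2 stood apart in Gtf2h3 at 25 (7.85 to 9.73), Med13 at 14.9 (2.50 to 5.45) and Taf12 at 0 (13.4 to 16.9), and replicate 3 in Med1 at 12.8 (2.46 to 4.90).

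In 8-cell embryos, replicate 3 was low in Gtf2f2 at 9.02 (10.4 to 10.6), Gtf2h3 at 1.59 (11.9 to 13.9) and Med27 at 10.6 (23.0 to 24.4), and replicate 2 in Polr2c at 36.7 (53.5 to 54.8). In 16-cell embryos, Polr2b was at 6.35 in replicate 2 (11.8 to 12.8). The cause of these differences was not tested.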

How the results depend on the processing

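The numbers of members called between E2C and L2C (46) stayed between 43 and 47, those between oocyte and E2C (14) between 12 and 18, and those between oocyte and L2C (54) between 53 and 56 under the alternatives run. Embryos were left out in turn only in stages of 5 or fewer, plus L2C replicate 1, so oocytes, zygotes and the other L2C embryos were not left out. The split of higher against lower moved with the count models, from 32 and 14 to 27 and 16 at E2C to L2C (edgeR and DESeq2), from 7 and 7 to 3 and 13 (edgeR) or 3 and 15 (DESeq2) at oocyte to E2C, and from 34 and 20 to 30 and 26 (edgeR) or 29 and 25 (DESeq2) at oocyte to L2C. edgeR moved the median log2 fold change of all genes at E2C to L2C from 0.03 to −0.14 and that of the members from 0.69 to 0.49. Without L2C replicate 1, chosen after seeing the data, 55 members were called at oocyte to L2C.

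Steps with few calls moved more. Oocyte to zygote went from 2 to 7 calls with a pseudocount of 0.1 and to 4 with edgeR, and zygote to E2C from 6 to 12, all lower, with edgeR and DESeq2 (4 to 8 leaving out an embryo). L2C to 4-cell went from 3 to 1 with the other pseudocount and with the run as a block and to 6 without array weights (1 to 5 leaving out an embryo, 5 without 4-cell replicate 2 and 1 without 4-cell replicate 5). The 15 lower calls at 4-cell to 8-cell became 8 with the other pseudocount, 6 with edgeR (3 higher, 3 lower) and 5 with DESeq2 (3 and 2), and 7 to 16 leaving out an embryo (7 without 4-cell replicate 5). 8-cell to 16-cell went from 2 to 5, 4 with the run block and 1 with edgeR (2 to 4 leaving out an embryo, 4 without 16-cell replicate 3). Isoform calls went from 17 to 30 with edgeR at zygote to E2C (14 to 20 leaving out an embryo) and from 92 to 58 with DESeq2 at E2C to L2C (88 to 98). Members with a share change ranged over 2 to 3 leaving out an embryo at zygote to E2C (4 with all), 7 to 11 at E2C to L2C (10), 0 to 3 at L2C to 4-cell (0, and 3 without L2C replicate 1), 1 to 2 at 4-cell to 8-cell (1, and 2 with a minimum of 5 UMIs) and 0 to 2 at 8-cell to 16-cell (1, and 0 with 5 UMIs).

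As a percent of the oocyte sum, the summed level of the members was 95.2 in zygotes, 79.5 in E2C, 88.2 in L2C, 88.4 in 4-cell, 63.5 in 8-cell and 57.3 in 16-cell embryos. As UMIs per cell it was 127, 33.1, 22.8, 12.6, 8.89 and 7.30, and as members detected after thinning 110, 113, 130, 127, 103 and 96.0. Of the called results of named members, 70 were called under every alternative run, 34 were lost under at least 1, and none reversed. Lost under both edgeR and DESeq2 were, among others, Med6, Med13, Med14 and Med28 at oocyte to E2C, Med1 at zygote to E2C, and Gtf2f1, Gtf2f2, Taf4b, Taf7 and Taf9 at 4-cell to 8-cell. The cause of these losses was not tested. No paired analysis was possible because the embryo numbers in the cell names only number the embryos of a stage and no embryo was sampled at 2 stages.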

Other observations

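The second set of oocytes gave values that belong in no comparison between stages, and which parts came from the same oocyte was not labelled. The summed isoform level of the members had a median of 1334 copies per 100,000 UMIs in the 4 intact oocytes (1227 to 1393), 1306 in the larger parts and 1333 in the smaller, against 2045 (1732 to 2223) in the oocytes of the first 3 runs. The order of 72 members was alike (Spearman rho 0.81 for intact oocytes, 0.80 and 0.83 for the larger and smaller parts, a description across genes). Single members differed. Gtf2a2 was at 148 copies in the first set and 37.3 in the intact oocytes of the second, Polr2c at 299 and 159, Med27 at 276 and 91.9, Gtf2b at 89.3 and 56.2 and Polr2l at 15.8 and 5.74, while Med30 was at 34.9 and 102 and Gtf2h1 at 1.14 and 24.0. The sets are separate libraries with separate isoform tables, and the cause of these differences was not tested.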
